A study of Mus musculus with 34 samples.

Results

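The tetraspanin genes of mouse splenic dendritic cells (DCs) were examined by symbol: Tspan followed by a number, or Cd9, Cd37, Cd53, Cd63, Cd81, Cd82, Cd151, Upk1a, Upk1b, Prph2 and Rom1. Of the 22180 genes with a probe set annotated to exactly 1 symbol, 31 matched. Tspan2os, a non-coding gene antisense to Tspan2 that the symbol rule also took in, is 1 of them, and the other 30 encode tetraspanins. A total of 32 probe sets carried these genes, Cd9 having 2, and the probe set with the highest mean signal stood for each gene.

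DCs were sorted by FACS from spleens of C57BL/6 mice and profiled on 34 microarrays in 11 groups. Sorted CD8+ and CD8- DCs came from wild-type (WT) and Mst1/2-/- mice (here Mst1/2-KO), which lack the Hippo pathway kinases Mst1 and Mst2, with 4 arrays in each of the 4 groups and no stimulation named in the labels. For unseparated (total) DCs there were 4 arrays from WT and 3 from Mst1/2-KO mice. Experiment 1 held DCs stimulated with anti-CD40, which engages a receptor that T cells use to activate DCs, on 4 arrays of Rag1-/- mice and 3 arrays of Rag1-/-/p38-/- mice. Both groups thus lacked Rag1, without which mature T and B cells do not form. Experiment 2 held 2 Rag1-KO arrays and 1 WT array after anti-CD40 and 1 Rag1-KO array without stimulation. The labels give neither the age or sex of the mice, nor the promoter or cell type in which a gene was deleted, nor which p38 gene was lost. Whether the arrays of 1 group stem from different mice is not stated either. The p-values thus cover the array-to-array spread, which may be technical.

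Tetraspanins are small membrane proteins that span the membrane several times and gather integrins, proteases, receptors and each other into membrane domains. Some, such as Cd9, Cd81 and Cd82, act mostly at the cell surface, whereas Cd63 cycles to late endosomes, lysosomes and multivesicular bodies and is carried on exosomes. A subgroup known as TspanC8 escorts the sheddase Adam10 out of the endoplasmic reticulum. In DCs, family members are found with MHC class II molecules at the surface and in endosomes, and Cd37 and Cd53 are largely restricted to leukocytes.

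Signals are deposited log2 values, in which a difference of 1 is a doubling. They are comparable between arrays of the same experiment only, because each probe set carries a constant that differs between experiments. Changes are given as log2 differences ± SE. A gene was called at an adjusted p under 0.05 in limma, a linear model with pooled variance estimates, with p-values adjusted over all 22180 genes. The median signal of an array lay between 4.11 and 4.20. Of the 31 members, 18 lay above the array's median on all 34 arrays, and 10 lay below it on all 34. The dim members were Tspan1, Tspan6, Tspan8, Tspan10, Tspan12, Tspan15, Tspan32, the antisense gene Tspan2os and the urothelial uroplakins Upk1a and Upk1b. Rom1, Tspan5 and Tspan18 crossed the median. Stk4, which encodes Mst1, fell in Mst1/2-KO arrays by 0.86 ± 0.10 in CD8+ DCs, by 0.77 ± 0.10 in CD8- DCs and by 1.09 ± 0.09 in total DCs. The gene of Mst2 was not examined. Marker genes mostly matched the sorted labels. All 8 CD8+ DC markers, Cd8a and Xcr1 among them, were higher in WT CD8+ than in WT CD8- DCs. Their list means were 10.90 to 11.14 against 7.38 to 8.02. Of the 7 CD8- DC markers 6 were lower in WT CD8+ DCs, and Clec12a was higher (9.932 against 8.605). The 6 DC markers, Itgax, Flt3, Zbtb46, H2-Ab1, Kit and Dpp4, averaged 9.77 to 10.22 on all arrays.

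Cd63 carried the largest differences between genotypes in the family. In the sorted cells it lay near 9 in both WT subsets, about 2 units lower in Mst1/2-KO CD8+ DCs and about 0.5 units lower in Mst1/2-KO CD8- DCs. In total DCs it was 2.58-fold lower in Mst1/2-KO arrays. The 300 bases around the Cd63 start site (250 before to 50 after it) are shown with those of Tspan3, because these were the 2 members that fell in Mst1/2-KO CD8+ DCs. The windows are RefSeq sequences of GRCm38.p6, 5′ to 3′ on the strand of the gene. Lower case throughout means that none of the motifs searched on both strands was found.

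Cd63 (chr10:128909095-128909394, + strand): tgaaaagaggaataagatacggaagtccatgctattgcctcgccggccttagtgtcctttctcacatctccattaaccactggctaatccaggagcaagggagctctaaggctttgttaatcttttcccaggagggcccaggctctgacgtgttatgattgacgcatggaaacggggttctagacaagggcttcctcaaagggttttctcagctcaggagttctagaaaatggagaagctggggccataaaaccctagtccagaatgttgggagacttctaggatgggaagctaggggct
Tspan3 (chr9:56161021-56161320, - strand): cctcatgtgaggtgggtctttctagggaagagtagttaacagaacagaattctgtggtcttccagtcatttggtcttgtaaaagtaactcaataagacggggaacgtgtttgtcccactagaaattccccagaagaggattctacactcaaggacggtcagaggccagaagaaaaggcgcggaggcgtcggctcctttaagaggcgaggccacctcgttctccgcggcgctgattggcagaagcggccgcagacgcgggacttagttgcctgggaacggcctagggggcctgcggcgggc

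The motifs searched were the TEAD core GGAATG, the E-box CACGTG, the GC box GGGCGG, the IRF half-site GAAA repeated after any 2 bases and the NF-kB consensus. Matches of different motifs were allowed to overlap, and a match or its absence describes only these letters in this window. Of the 31 members, 29 had a window, 39 windows in all. The GC box stood in 41.0% of member windows and in 35.7% of all 32851 windows, the TEAD core in 12.8% and 14.7%, the NF-kB consensus in 12.8% and 8.46%, the E-box in 5.13% and 7.15%, and the IRF pair in 0% and 3.44%.

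Cd63 (probe set 17238594) read 9.01, 9.04, 9.09 and 9.03 on the WT CD8+ arrays. On the Mst1/2-KO CD8+ arrays it read 7.10, 7.05, 7.10 and 6.02. Every Mst1/2-KO array lay below every WT array, and replicate 4 lay about 1 unit below the other Mst1/2-KO arrays. The change was -2.23 ± 0.18, a 4.68-fold fall (adjusted p = 2.32e-06), and ranked 7 among all genes by p-value. Without replicate 4 the change was -1.96.

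In CD8- DCs, Cd63 read 9.26, 9.02, 9.17 and 9.28 on WT arrays. The Mst1/2-KO CD8- arrays read 8.89, 8.53, 8.54 and 8.69. The genotypes did not overlap here either, yet the change of -0.52 ± 0.18 was not called (adjusted p = 0.104). The 95% interval of this change ran from -0.90 to -0.14. The SE was pooled over the 4 sorted groups. Among them the SD of Cd63 was 0.12 on WT CD8-, 0.17 on Mst1/2-KO CD8- and 0.53 on Mst1/2-KO CD8+ arrays. With only the 2 CD8- groups in the limma model the SE was 0.10 and the change was called (adjusted p = 0.0163).

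The genotype effect on Cd63 differed between the subsets. The effect in CD8+ DCs minus that in CD8- DCs was -1.71 ± 0.25 (adjusted p = 0.0037). Marker lists differed in the same contrast. All 8 plasmacytoid DC markers were below 0, and 2 were called. Of the CD8+ DC markers 7 of 8 were below 0, with a median of -0.72 and 0 called. In each of the CD8- DC, B cell, and macrophage and monocyte lists 1 gene was called above 0. The part of these lists in the Cd63 difference was not tested. In bulk samples, fewer cells of a type and less RNA per cell cannot be told apart. Of the marker lists, 1 gene was called between genotypes in CD8+ DCs, the integrin gene Itgam (0.71 ± 0.14), a marker of CD8- DCs. It was the only 1 of the 7 CD8- DC markers above 0. The other 6 were below 0, and the median of the list was -0.34. The list mean of CD8- DC markers was 6.11 to 6.26 in Mst1/2-KO and 6.25 to 6.61 in WT CD8+ arrays, and that of CD8+ DC markers 11.04 to 11.17 and 10.90 to 11.14. The list means of the 5 platelet markers (4.26 to 4.56 in Mst1/2-KO, 4.60 to 4.73 in WT) and of the 7 T cell markers (4.1 to 4.230 in Mst1/2-KO, 4.235 to 4.38 in WT) also did not overlap. Of the platelet markers 4 of 5 were below 0, as were 5 of 7 T cell markers, and none was called. Their part in the Cd63 result was not tested.

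In total DCs, WT arrays read 8.91, 8.71, 9.29 and 9.0 for Cd63. The 3 Mst1/2-KO arrays read 7.66, 7.62 and 7.55. All Mst1/2-KO values lay more than 1 unit below the lowest WT value. The change was -1.37 ± 0.13 (2.58-fold, adjusted p = 0.00301), rank 12 of all genes by p-value. These arrays belong to another experiment than the sorted cells. Of the CD8- DC markers 1 of 7 was lower, Cd4 (-2.20 ± 0.30), with list means of 7.11 to 7.70 in Mst1/2-KO and 7.89 to 8.22 in WT total DCs. Of the macrophage and monocyte markers 1 of 11 was lower, Adgre1 (-1.47 ± 0.22). The 5 platelet markers did not overlap in their list mean (4.21 to 4.43 in Mst1/2-KO, 4.45 to 5.04 in WT), and neither did the 2 erythroid markers (4.16 to 4.35 in Mst1/2-KO, 4.06 to 4.11 in WT). All 8 CD8+ DC markers were above 0, with a median of 0.35, and 6 of 8 plasmacytoid DC markers were below 0, with a median of -0.42. In each of these last lists 5 of 8 had an unadjusted p under 0.05, and none was called. Their part in the Cd63 result was not tested.

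**Figure D1:**
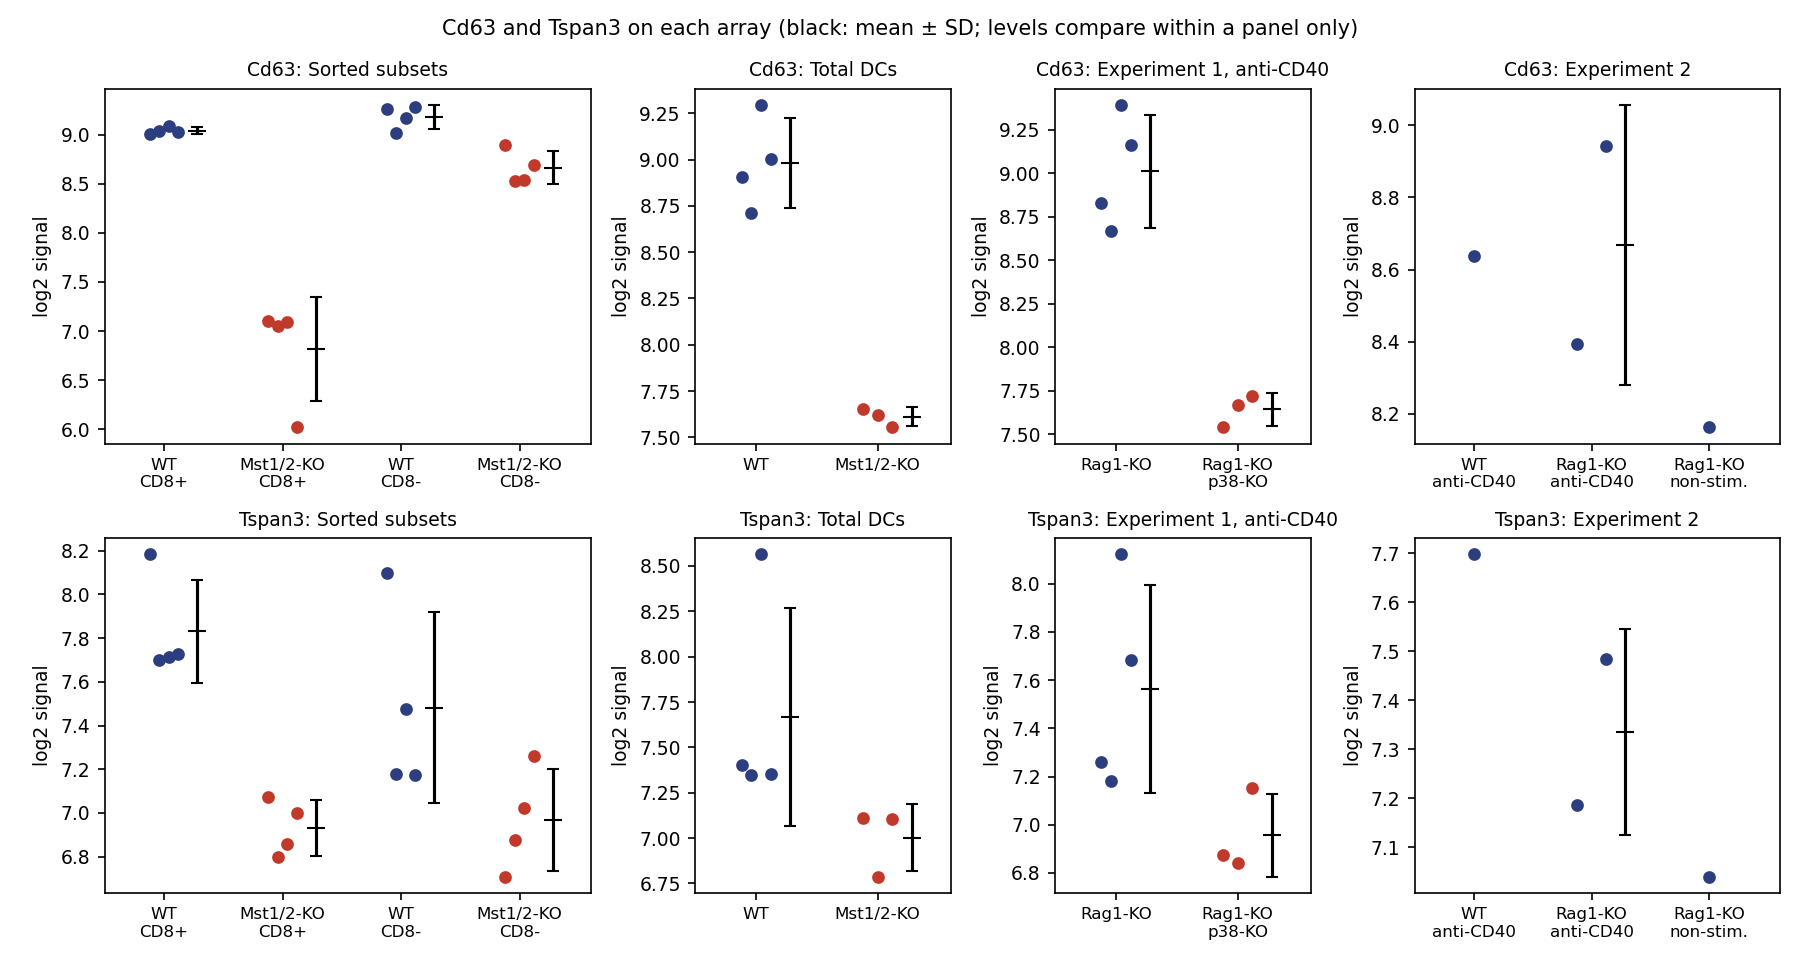
Log2 signal of Cd63 (top) and Tspan3 (bottom) on each array, in 1 panel per experiment. Points are arrays, black marks the mean ± SD where a group has more than 1 array, red the Mst1/2-KO and p38-KO groups and blue all other groups. The vertical axes differ between panels and do not start at 0. Cd63 lies between 6.02 and 7.10 on the Mst1/2-KO CD8+ arrays and between 9.01 and 9.09 on the WT CD8+ arrays.

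In Mst1/2-KO CD8+ DCs, 2 of 31 members were called, Cd63 and Tspan3, both lower, or 6.45% of members against 0.888% of all genes in either direction and 0.654% lower. Their groups were also the 2 that did not overlap, against 6.33% of all genes. The median change of the members was 0.01, against 0.00 over all genes. Tspan3, a widely expressed tetraspanin, read 8.18, 7.70, 7.71 and 7.73 on WT CD8+ arrays. On Mst1/2-KO CD8+ arrays it read 7.07, 6.80, 6.86 and 7.0. Replicate 1 stood above the other WT arrays, and the genotypes did not overlap. Tspan3 fell by 0.90 ± 0.18 (1.86-fold, adjusted p = 0.0178). The call of Tspan3 ended when WT replicate 1 was left out (-0.78, adjusted p = 0.064), and also without Mst1/2-KO CD8+ replicate 2 (-0.85, adjusted p = 0.0507) or replicate 3 (-0.87, adjusted p = 0.0677), which left 1 called member each time.

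Tspan3 was also lower on average, without a call, elsewhere. In CD8- DCs, where WT arrays read 8.10, 7.18, 7.48 and 7.17 and Mst1/2-KO arrays 6.71, 6.88, 7.02 and 7.26, the ranges overlapped (-0.51 ± 0.18, adjusted p = 0.101). WT replicate 1 was the highest array for Tspan3 in both sorted subsets. In total DCs the WT arrays read 7.40, 7.35, 8.56 and 7.35 and the Mst1/2-KO arrays 7.11, 6.79 and 7.11. Those groups did not overlap, with WT replicate 3 more than 1 unit above the other WT arrays, and the change of -0.67 ± 0.28 was not called (adjusted p = 0.337). The genotype effect on Tspan3 in CD8+ minus that in CD8- DCs was -0.38 ± 0.25 and was not called (adjusted p = 0.719).

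Among the other members in CD8+ DCs, the smallest p-values after Cd63 and Tspan3 belonged to the dim Tspan6 (-0.30 ± 0.11, adjusted p = 0.279) and Tspan17 (-0.50 ± 0.19, adjusted p = 0.325), a TspanC8 member. Neither was called, and in both the genotypes overlapped. In total DCs, Cd63 was the called member, 3.23% of members against 0.848% of all genes in either direction and 0.532% lower. There 7 members did not overlap between genotypes (22.6%, against 13.8% of all genes), and the members' median change was -0.03, against 0.00. They included Cd81 (0.25 ± 0.08, adjusted p = 0.22) and Tspan13 (-0.24 ± 0.09, adjusted p = 0.295). Cd81 was called as well when limma's variance trend and robust options were used (adjusted p = 0.0491). Cd81 read 10.81, 10.86, 10.81 and 10.80 on WT and 11.10, 11.03 and 11.09 on Mst1/2-KO total DC arrays. In the sorted cells its change was 0.01 ± 0.10 in CD8+ and -0.34 ± 0.10 in CD8- DCs. The part of the marker shifts of total DCs in these changes of Cd81 and Tspan13 was not tested.

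**Figure D2:**
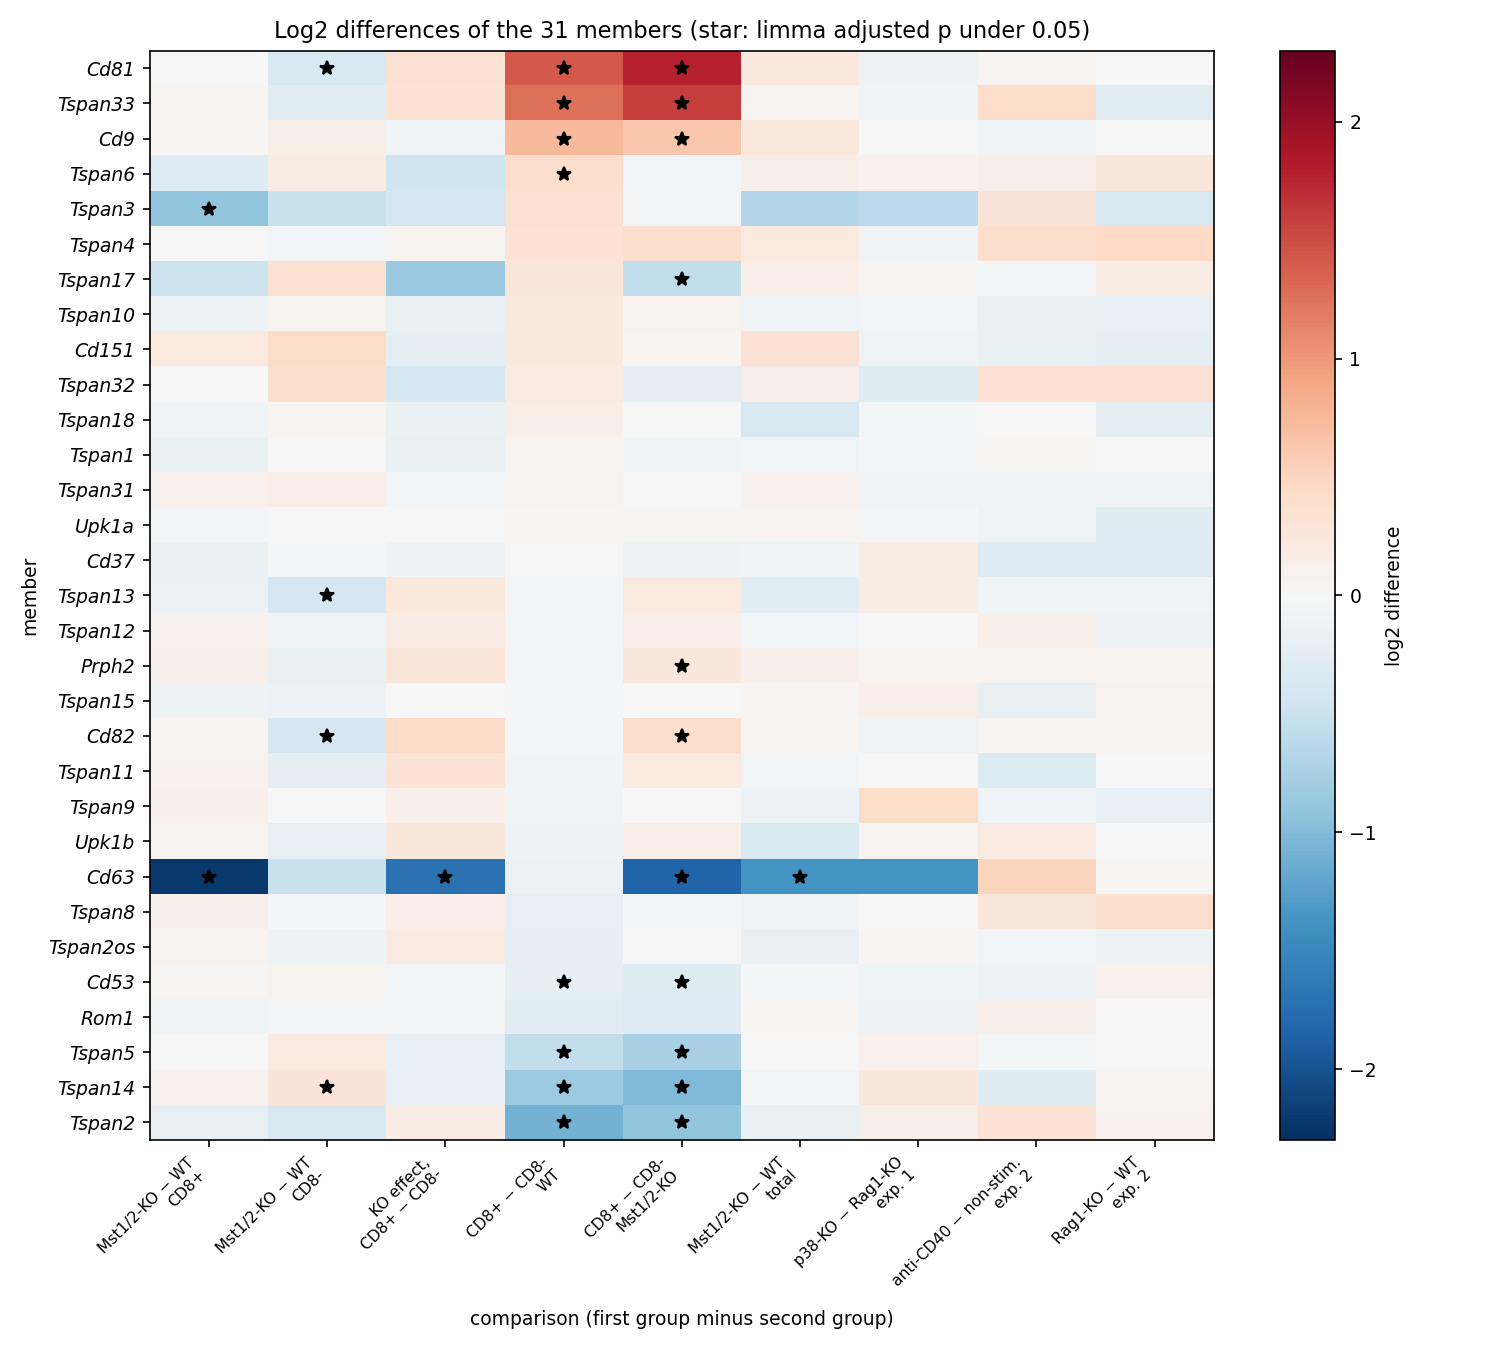
Log2 differences of the 31 members (vertical axis, ordered by the WT subset difference) in the 9 comparisons (horizontal axis). Colour gives the difference, red for higher and blue for lower in the group named first, and a star marks an adjusted p under 0.05. The darkest blue cells belong to Cd63 and the darkest red cells to Cd81 and Tspan33.

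The members called in CD8- DCs were not those called in CD8+ DCs. A call in 1 subset only does not show that the genotype effects differ. As fitted, that difference was called for Cd63 alone. The largest falls in CD8- DCs were those of Cd63 (-0.52) and Tspan3 (-0.51), without a call. Cd82 and Tspan13 fell in Mst1/2-KO CD8- DCs, and Cd81 and Tspan14 passed the test by a narrow margin, Cd81 lower and Tspan14 higher. These 4 made up 12.9% of members, against 6.68% of all genes, of which 3.9% were higher and 2.79% lower. The ranges of 6 members did not overlap (19.4%, against 12% of all genes). Their median change was -0.05, against 0.00 over all genes.

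Cd82, a surface tetraspanin known as a metastasis suppressor, read 7.83, 7.84, 8.0 and 7.87 on WT CD8- arrays. Mst1/2-KO CD8- arrays read 7.55, 7.48, 7.57 and 7.38. The genotypes did not overlap, and Cd82 fell by 0.39 ± 0.07 (1.31-fold, adjusted p = 0.00263). In CD8+ DCs the same gene read 7.74 to 7.96 on WT and 7.83 to 7.96 on Mst1/2-KO arrays. The difference between the 2 genotype effects on Cd82, 0.45 ± 0.10, just missed the threshold (adjusted p = 0.0551). It passed after quantile normalization (adjusted p = 0.0364), and without WT CD8- replicate 1 (adjusted p = 0.0442), which raised the called members from 1 to 2.

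Tspan13, whose signal was among the brightest of the probe sets, read 10.87, 10.96, 10.92 and 10.84 on WT CD8- arrays. Mst1/2-KO CD8- arrays read 10.61, 10.60, 10.50 and 10.34. Every Mst1/2-KO array lay below every WT array, and Tspan13 fell by 0.38 ± 0.09 (1.30-fold, adjusted p = 0.0109). In CD8+ DCs its genotypes overlapped (-0.14 ± 0.09, adjusted p = 0.618). The difference between the 2 genotype effects on Tspan13 was not called (0.24 ± 0.12, adjusted p = 0.58).

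Tspan14, a TspanC8 escort of Adam10, read 7.37, 7.28, 7.37 and 7.43 on WT CD8- arrays. Mst1/2-KO CD8- arrays read 7.73, 7.51, 7.73 and 7.64, all above the WT arrays. The rise was 0.29 ± 0.07 (1.22-fold, adjusted p = 0.0253). The genotype effect on Tspan14 in CD8+ minus that in CD8- DCs was not called (-0.18 ± 0.11, adjusted p = 0.653). Cd81, a surface tetraspanin, read 10.16, 10.26, 10.50 and 10.28 on WT arrays. Mst1/2-KO arrays read 10.26, 9.95, 9.79 and 9.83, so that Mst1/2-KO replicate 1 lay within the WT range. Cd81 fell by 0.34 ± 0.10 (1.27-fold, adjusted p = 0.0439). The call of Tspan14 ended in 7 of 15 alternative settings and that of Cd81 in 10 of 15. The 4 called members became 2 when replicate 3 of either genotype, replicate 2 of WT or replicate 4 of Mst1/2-KO was left out.

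The uncalled members nearest the threshold in CD8- DCs were Tspan32 (0.39 ± 0.13, adjusted p = 0.0784), the integrin partner Cd151 (0.42 ± 0.14, adjusted p = 0.0813) and Tspan2 (-0.34 ± 0.12, adjusted p = 0.0932). Cd151 was called after median centring (0.46 ± 0.13, adjusted p = 0.0494) and without Mst1/2-KO replicate 2 (0.51 ± 0.14, adjusted p = 0.0361), and Tspan2 without Mst1/2-KO replicate 1 (-0.44 ± 0.11, adjusted p = 0.0322). Tspan2 read 7.11, 7.08, 7.07 and 7.06 on WT and 7.02, 6.58, 6.92 and 6.44 on Mst1/2-KO CD8- arrays, without overlap. Several marker lists moved with genotype in these arrays. Of the B cell markers 3 of 8 were lower (Ms4a1, Cr2 and Blk), with list means of 4.63 to 4.85 in Mst1/2-KO and 5.07 to 5.37 in WT CD8- DCs. Of the plasmacytoid DC markers 4 of 8 were higher (7.83 to 8.22 against 6.97 to 7.42), and of the CD8+ DC markers 5 of 8 (7.91 to 8.42 against 7.38 to 8.02). Of the CD8- DC markers 3 of 7 were lower and 1 was higher (8.70 to 8.99 against 9.33 to 9.49). Of the macrophage and monocyte markers Adgre1 was lower and Ly6c2 higher, of the T cell markers Cd5 was lower, and of the DC markers Kit and Dpp4 were lower. Their part in the changes of Cd63, Cd82, Tspan13, Tspan14 and Cd81 was not tested.

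The sorted subsets themselves differed in more members than the genotypes did. In WT mice, 4 members were higher in CD8+ DCs (Cd81, Tspan33, Cd9 and Tspan6) and 4 were lower (Tspan2, Tspan14, Tspan5 and Cd53). These 8 were 25.8% of members, against 21% of all genes, of which 11% were higher and 10% lower. The same 8 were the members without overlap, against 22.4% of all genes. The members' median difference was -0.02, against 0.03 over all genes. Markers of other cell types also differed between the WT subsets. Of the macrophage and monocyte markers 8 of 11 were lower in CD8+ DCs, and of the T cell markers 6 of 7. Of the natural killer cell markers 5 of 6 were lower. Of the B cell markers 4 of 8 were lower and 1 was higher. Of the plasmacytoid DC markers 2 of 8 were lower and 1 was higher. Their part in the subset differences of the members was not tested.

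The 2 members with the largest excess in CD8+ DCs, Cd81 and Tspan33, are shown with their start-site windows, in which capitals mark GC boxes on the printed strand or its complement. The Cd81 window held 3 and had a GC content of 65.7%, and the Tspan33 window held 2 at 65.0%. The windows of Cd63 and Tspan3 above had a GC content of 49.3% and 55.7%.

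Cd81 (chr7:143052500-143052799, + strand): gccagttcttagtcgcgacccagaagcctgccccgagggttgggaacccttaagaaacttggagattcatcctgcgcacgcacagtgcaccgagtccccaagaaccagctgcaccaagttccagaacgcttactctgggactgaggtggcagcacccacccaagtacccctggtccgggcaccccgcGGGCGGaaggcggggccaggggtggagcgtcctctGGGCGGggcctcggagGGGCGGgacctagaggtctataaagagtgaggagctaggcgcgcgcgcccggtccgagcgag
Tspan33 (chr6:29693964-29694263, + strand): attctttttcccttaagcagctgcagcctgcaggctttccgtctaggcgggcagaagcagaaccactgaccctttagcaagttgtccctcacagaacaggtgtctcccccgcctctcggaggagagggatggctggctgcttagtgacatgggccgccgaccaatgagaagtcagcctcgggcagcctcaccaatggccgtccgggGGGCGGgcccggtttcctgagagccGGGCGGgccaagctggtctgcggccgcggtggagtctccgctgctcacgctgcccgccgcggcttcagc

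Cd81 read 11.65, 11.73, 11.78 and 11.69 on WT CD8+ arrays, against 10.16 to 10.50 on WT CD8- arrays, and was 2.66-fold higher in CD8+ DCs (1.41 ± 0.10, adjusted p = 4.98e-09). On Mst1/2-KO CD8+ arrays it read 11.72, 11.72, 11.64 and 11.82, and the subset difference there was 1.77 ± 0.10 (adjusted p = 3.17e-10). Every CD8+ array of either genotype lay above every CD8- array.

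Tspan33, a TspanC8 member, read 7.47, 7.92, 7.74 and 7.79 on WT CD8+ arrays and 6.33, 6.44, 6.56 and 6.50 on WT CD8- arrays. The subsets were clearly apart, with a 2.41-fold higher signal in CD8+ DCs (1.27 ± 0.11, adjusted p = 6e-08). In Mst1/2-KO cells the arrays read 7.68, 7.77, 7.71 and 8.04 in CD8+ and 6.20, 6.00, 6.36 and 6.26 in CD8- DCs, a difference of 1.60 ± 0.11 (adjusted p = 3.52e-09). The change of the subset difference with genotype was not called for Cd81 (0.36 ± 0.14, adjusted p = 0.376) or Tspan33 (0.32 ± 0.15, adjusted p = 0.528).

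Cd9, a surface tetraspanin that associates with Igsf8 and Ptgfrn, read 9.37, 9.46, 9.54 and 9.48 on WT CD8+ and 8.88, 8.60, 8.75 and 8.67 on WT CD8- arrays. Its difference was 0.74 ± 0.08 in WT (adjusted p = 8.48e-07) and 0.63 ± 0.08 in Mst1/2-KO cells (adjusted p = 5.59e-06). The second Cd9 probe set gave smaller differences of the same sign that were not called, 0.28 ± 0.10 in WT (adjusted p = 0.0758) and 0.24 ± 0.10 in Mst1/2-KO cells (adjusted p = 0.127). Tspan6 was called in WT only at a dim signal, with 3.64, 3.20, 3.27 and 3.09 in CD8+ against 2.90, 2.76, 3.02 and 2.90 in CD8- DCs (0.41 ± 0.11, adjusted p = 0.00867). The test of its change with genotype did not pass (-0.47 ± 0.15, adjusted p = 0.227).

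Tspan2, which is best known from oligodendrocytes, had the largest deficit in WT CD8+ DCs. Its CD8+ arrays read 5.99, 5.85, 6.11 and 6.04 and its CD8- arrays 7.06 to 7.11, without overlap. The difference was -1.08 ± 0.12 in WT (2.12-fold, adjusted p = 1.23e-06) and -0.91 ± 0.12 in Mst1/2-KO cells (adjusted p = 1.09e-05). Tspan14 read 6.50, 6.56, 6.39 and 6.65 in WT CD8+ DCs, below all CD8- arrays, and differed by -0.84 ± 0.07 in WT (1.79-fold, adjusted p = 1.25e-07) and by -1.02 ± 0.07 in Mst1/2-KO cells (adjusted p = 1.1e-08). Tspan5, another TspanC8 member, read 4.14, 4.34, 4.08 and 4.12 in WT CD8+ and 4.94, 4.58, 4.59 and 4.83 in WT CD8- DCs, so that part of its CD8+ signals lay below the array median. It differed by -0.56 ± 0.14 in WT (adjusted p = 0.00523) and by -0.75 ± 0.14 in Mst1/2-KO cells (adjusted p = 0.0005).

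Cd53, a leukocyte tetraspanin, was slightly lower in CD8+ DCs. It read 10.96, 10.91, 11.01 and 11.05 in WT CD8+ and 11.17, 11.19, 11.25 and 11.21 in WT CD8- DCs, without overlap (-0.22 ± 0.06, adjusted p = 0.0182). Cd53 lost its call when WT CD8+ replicate 2 was left out (adjusted p = 0.059) or WT CD8- replicate 3 (adjusted p = 0.0526). In Mst1/2-KO cells the difference was -0.29 ± 0.06 (adjusted p = 0.00353). Tspan3 was not called between the WT subsets (0.35 ± 0.18, adjusted p = 0.203). It was called when the replicate number, by which these arrays pair, was added as a block (0.35 ± 0.11, adjusted p = 0.0453), and without WT CD8- replicate 1 (0.55, adjusted p = 0.00866).

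**Figure D3:**
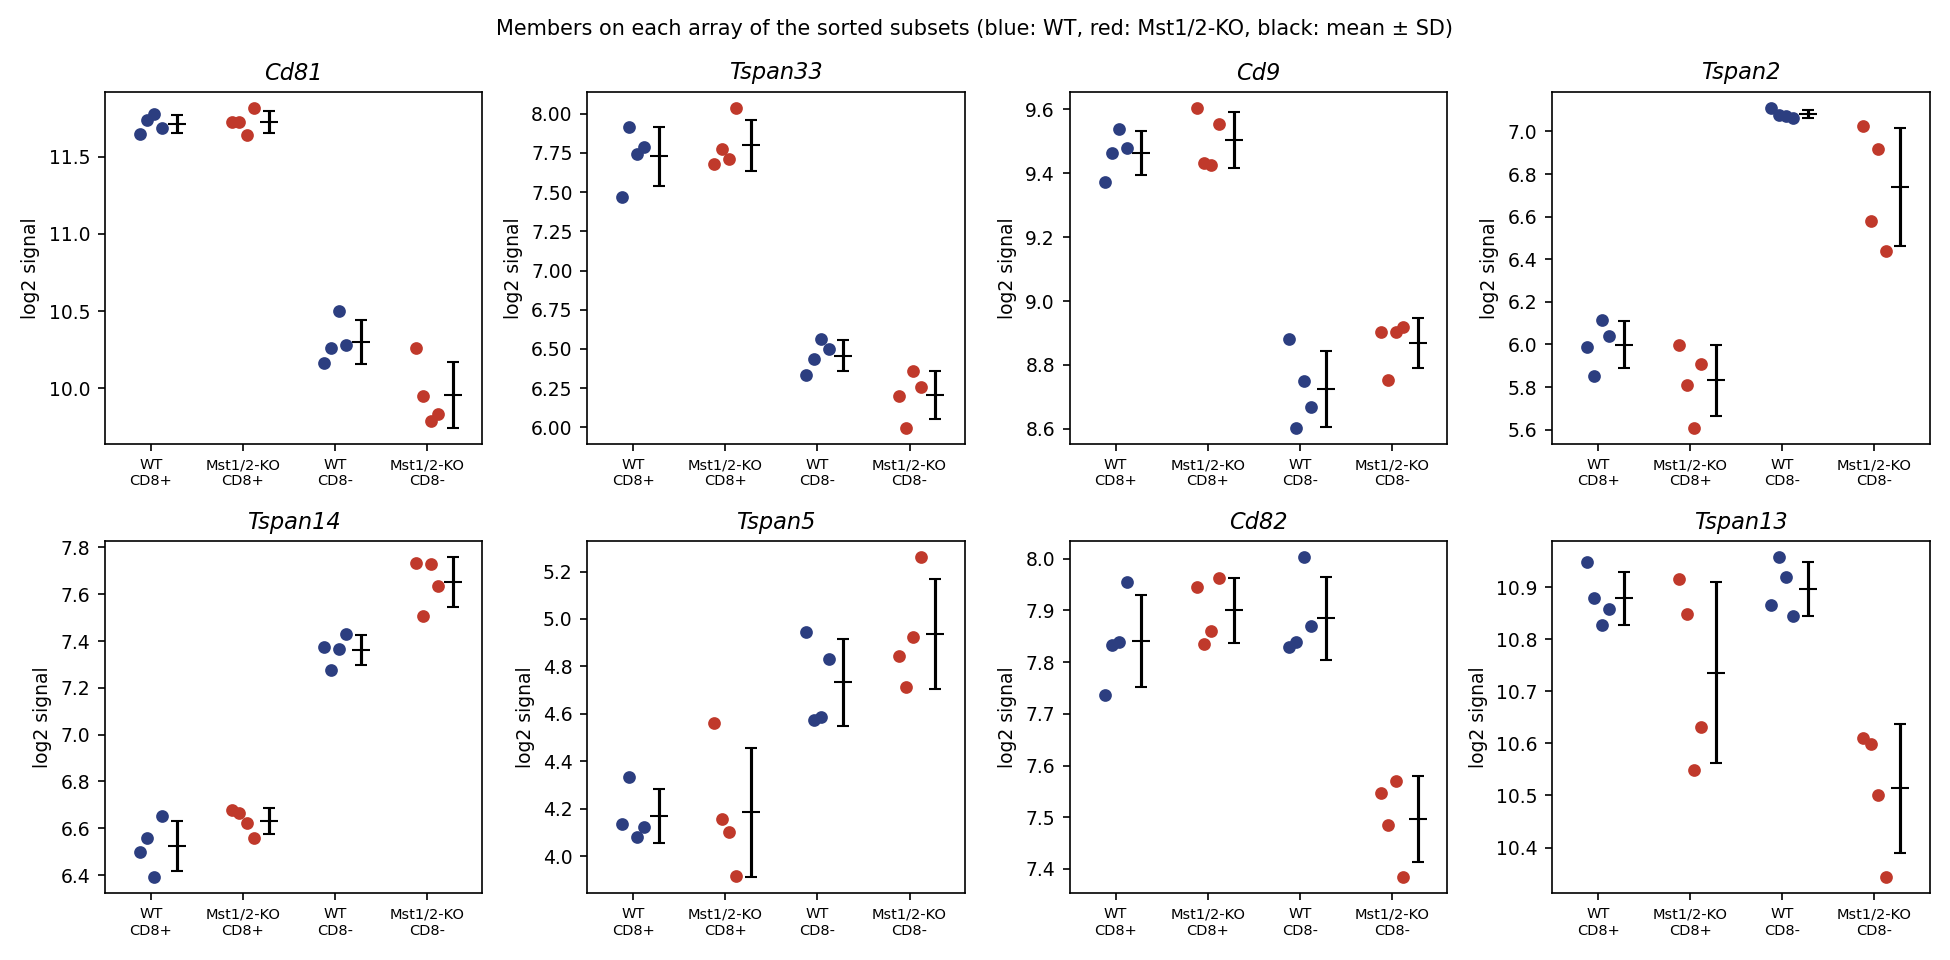
Log2 signal of 8 members on each array of the sorted subsets. Points are arrays, blue for WT and red for Mst1/2-KO, and black marks the mean ± SD (n = 4 per group). The vertical axes differ between panels and do not start at 0. Cd81, Tspan33 and Cd9 are higher and Tspan2, Tspan14 and Tspan5 lower in CD8+ than in CD8- DCs of both genotypes. Cd82 is lowest on the Mst1/2-KO CD8- arrays. Tspan13 has its lowest mean there, but its range overlaps that of Mst1/2-KO CD8+ DCs.

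In Mst1/2-KO mice 11 members differed between the subsets, 5 higher and 6 lower in CD8+ DCs, or 35.5% of members against 19.2% of all genes, of which 9.93% were higher and 9.3% lower. Also 11 members did not overlap, against 21.9% of all genes. The change with the largest size was that of Cd63. It did not differ detectably between WT subsets (-0.14 ± 0.18, adjusted p = 0.689, 95% interval -0.52 to 0.24), but was 3.60-fold lower in CD8+ than in CD8- DCs of Mst1/2-KO mice (-1.85 ± 0.18, adjusted p = 4.42e-07). As these contrasts share the arrays of the genotype comparisons, this is the same difference of effects given above. Lower in Mst1/2-KO CD8+ DCs were 7 of 11 macrophage and monocyte markers and 5 of 7 T cell markers. So were 3 of 6 natural killer cell and 4 of 8 plasmacytoid DC markers. Of the B cell markers 3 of 8 were lower and 1 was higher. Their part in these subset differences was not tested.

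Cd82, Tspan17 and Prph2 were called between the subsets in Mst1/2-KO mice and not in WT mice. Cd82 was higher in Mst1/2-KO CD8+ DCs by 0.40 ± 0.07 (adjusted p = 0.000391). Tspan17 read 5.26, 5.72, 5.24 and 5.48 in CD8+ and 5.99, 5.76, 6.42 and 5.80 in CD8- DCs of Mst1/2-KO mice (-0.57 ± 0.19, adjusted p = 0.0438), a call that ended in 7 of 15 settings. Prph2, known for photoreceptor discs, read 4.74, 4.76, 4.42 and 4.54 against 4.48, 4.17, 4.41 and 4.36 with overlap (0.26 ± 0.09, adjusted p = 0.0483), a call that ended in 11 of 15. The change of the difference with genotype was called for neither (Tspan17 -0.85 ± 0.27, adjusted p = 0.208, and Prph2 0.28 ± 0.12, adjusted p = 0.504). For the difference between genotype effects as a whole, Cd63 was the called member, 3.23% of members against 0.559% of all genes in either direction and 0.338% below 0.

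**Figure D4:**
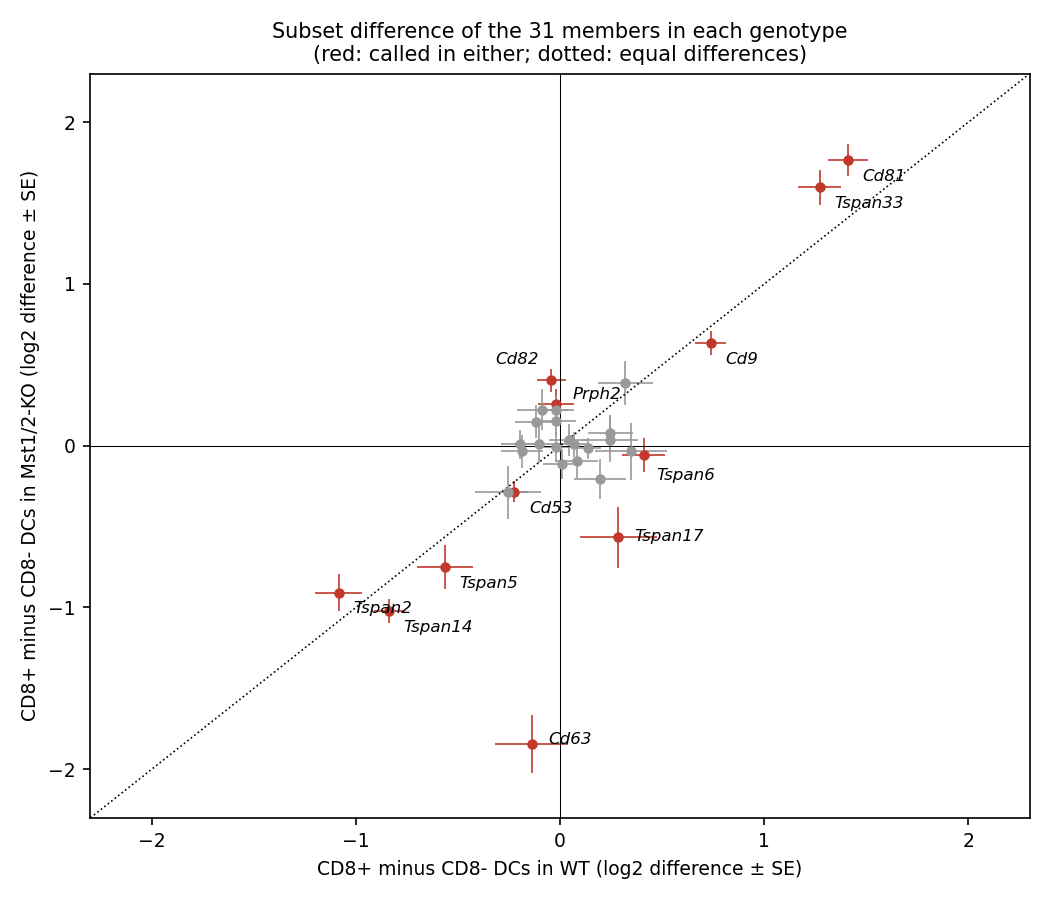
Log2 difference ± SE of CD8+ minus CD8- DCs in WT (horizontal axis) and Mst1/2-KO mice (vertical axis) for the 31 members. Red points were called in at least 1 genotype, and the dotted line marks equal differences. Cd63 lies far below the line, at -0.14 in WT and -1.85 in Mst1/2-KO mice, while Cd81 and Tspan33 lie at the upper right.

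Genes that work with tetraspanins were taken from 4 lists. The partner list, integrins, Adam10, Adam17, Igsf8, Ptgfrn and others, had 17 measured genes. In CD8+ DCs 1 of them fell in Mst1/2-KO arrays, the sheddase Adam17 (-0.39 ± 0.08), where 0.654% of all genes were lower. In CD8- DCs 2 rose, the fibronectin receptor chain Itga5 (0.99 ± 0.14) and its partner Itgb1 (0.29 ± 0.07), where 3.9% of all genes were higher. The genotype effects on Itga5 differed between the subsets (-0.99 ± 0.20, adjusted p = 0.0319). The median change of the list was 0.00 in CD8+ and 0.16 in CD8- DCs, against 0.00 over all genes in both.

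Between WT subsets 6 of 17 partners were higher and 4 lower in CD8+ DCs, where 11% of all genes were higher and 10% lower. The largest were the scavenger receptor gene Cd36 (3.27 ± 0.23), the palmitoyltransferase gene Zdhhc2 (2.45 ± 0.23), Clec7a, which encodes the Cd37-associated receptor dectin-1 (-2.62 ± 0.28), and Itgb3 (-1.89 ± 0.15). In Mst1/2-KO mice 5 were higher and 8 lower, against 9.93% and 9.3% of all genes, led by Clec7a (-2.84 ± 0.28), Cd36 (2.73 ± 0.23), Zdhhc2 (2.72 ± 0.23) and Itgb3 (-1.92 ± 0.15). Adam10, the client of TspanC8 proteins and named here after its value was seen, was lower in CD8+ than in CD8- DCs there (-0.31 ± 0.09, adjusted p = 0.0186). In WT mice its difference was -0.25 ± 0.09 (adjusted p = 0.0628), and the change of the difference with genotype was not called (-0.07 ± 0.13, adjusted p = 0.935).

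The 14 genes of exosome formation and release had 0 called members in the genotype comparisons with limma, in CD8+, CD8- and total DCs. Of all genes 0.888%, 6.68% and 0.848% were called there, so 0 of 14 says little. In the same order 9, 12 and 12 of the 14 were above 0. Their median changes were 0.07, 0.09 and 0.14, against 0.00 over all genes in each. Between WT subsets 5 of 14 were higher in CD8+ DCs and 0 lower, against 11% and 10% of all genes, led by the recycling GTPases Rab11a (0.76 ± 0.08) and Rab35 (0.71 ± 0.14), the ESCRT gene Chmp4b (0.37 ± 0.08) and Pdcd6ip, which encodes Alix (0.28 ± 0.06). In Mst1/2-KO mice, where 9.93% of all genes were higher and 9.3% lower, 4 of 14 were higher, among them Rab11a (0.82 ± 0.08), and Stam was lower (-0.44 ± 0.08). Of the 8 late endosome and lysosome membrane genes, the compartment of Cd63, 0 were called between genotypes. The subset counts are read against the subset shares of all genes given above. Between WT subsets 1 of the 8 was higher, Scarb2 (0.71 ± 0.10), and 4 were lower, led by the cholesterol transporter Npc1 (-1.16 ± 0.09) and Cd68 (-0.37 ± 0.08). In Mst1/2-KO mice Scarb2 was higher (0.53 ± 0.10) and 5 were lower, among them Npc1 (-1.31 ± 0.09), Lamp2 (-0.45 ± 0.08) and Cd68 (-0.42 ± 0.08). At an unadjusted p under 0.05, limma gave 1, 3 and 3 exosome genes and 2, 0 and 1 late endosome genes for genotype in CD8+, CD8- and total DCs.

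The 6 TspanC8 members did not move together. Between WT subsets Tspan33 was higher and Tspan14 and Tspan5 were lower in CD8+ DCs, and Tspan17, Tspan10 and Tspan15 were not called. In Mst1/2-KO mice Tspan17 was lower as well. Tspan10 and Tspan15 lay below the array median on every array.

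The genes whose signal followed Cd63 most closely over the 16 sorted arrays, by Pearson's r, were the chemokine gene Ccl5 (0.95), Tmem123 (0.92), the stress-response gene Gadd45b (0.92), the annexin gene Anxa3 (0.92) and the MHC class Ib gene H2-M2 (0.91). This is a description over arrays that share their groups. As they were picked on these arrays, their genotype differences there follow from the choice and are given as a description. In Mst1/2-KO CD8+ and CD8- DCs Ccl5 differed by -2.19 and -0.99, Tmem123 by -0.78 and -0.39, Gadd45b by -1.87 and -0.99, Anxa3 by -2.73 and -1.05, and H2-M2 by -2.79 and -1.77. In total DCs, which the choice did not use, Ccl5 (-1.49), Anxa3 (-1.65) and H2-M2 (-2.43) were called lower, and Tmem123 (-0.61) and Gadd45b (-0.94) were not called. In experiment 1 the p38-KO arrays differed by -0.16 for Ccl5, -0.37 for Tmem123, -0.29 for Gadd45b, -1.53 for Anxa3 and 0.43 for H2-M2, none of them called. Among the tetraspanins the closest was Tspan2 (0.60, rank 583 of all genes), followed by Tspan3 (0.55, rank 977).

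Some members lie side by side in the RefSeq gene order of GRCm38.p6, counting protein-coding genes. Tspan32 neighbours Cd81, Tspan18 neighbours Cd82 and Tspan11 neighbours Tspan9, while Cd151 and Tspan4 have 1 gene between them. Cd81 was 2.66-fold higher in WT CD8+ than CD8- DCs, while its neighbour Tspan32 stayed below the array median on every array. Cd82 fell in Mst1/2-KO CD8- DCs without a call in Tspan18, whose signal crossed the array median. A missing call at so dim a signal says little. Tspan11, Tspan9, Cd151 and Tspan4 were called in no comparison as fitted.

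In experiment 1, which asks what p38 loss changes in anti-CD40-stimulated DCs that lack Rag1, limma called 0 of 31 members and 0% of all genes. At an unadjusted p under 0.05 there were 3 members, and the count was also 0 in the 13 alternative settings run. The smallest p-value belonged to Cd63. It read 8.83, 8.67, 9.39 and 9.16 on Rag1-KO arrays and 7.54, 7.67 and 7.72 on Rag1-KO p38-KO arrays. The groups were about 1 unit apart at their nearest arrays, and the difference was -1.37 ± 0.17 (2.58-fold, adjusted p = 0.19 with limma), rank 12 of all genes by p-value.

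Tspan9, known from platelets, had the next smallest p-value in experiment 1. It read 4.92, 4.46, 4.40 and 4.52 on Rag1-KO and 4.99, 4.84 and 5.17 on Rag1-KO p38-KO arrays, with overlap (0.43 ± 0.14, adjusted p = 0.556). Tspan3 read 7.26, 7.18, 8.12 and 7.68 against 6.88, 6.84 and 7.15, just without overlap (-0.61 ± 0.23, adjusted p = 0.583). In all 3 members did not overlap (9.68%, against 7.48% of all genes), and the members' median change was -0.01, against 0.00. Mapk14, the gene of p38 alpha, was not lower in the p38-KO arrays (0.23 ± 0.14, adjusted p = 0.657). It checks nothing here, since neither the deleted gene and exons nor the position of the probes is known. All 7 neutrophil markers were below 0 in this comparison, with list means of 3.96 to 5.52 on p38-KO and 6.05 to 7.17 on Rag1-KO arrays, as were 10 of 11 macrophage and monocyte markers (6.99 to 7.39 against 7.29 to 8.32). The 7 T cell markers had list means of 4.72 to 4.84 on p38-KO and 4.46 to 4.69 on Rag1-KO arrays. Their part in the Cd63 difference was not tested.

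Experiment 2 compared anti-CD40 with no stimulation in Rag1-KO DCs, and Rag1-KO with WT DCs after anti-CD40, each against 1 array. The spread was pooled over the 11 arrays of both experiments, on the assumption that a lone array varies like the others. With stimulation 0 of 31 members were called by limma, against 0.0361% of all genes (0.0271% higher and 0.00902% lower), and 2 had an unadjusted p under 0.05. These were Tspan4, which is found on migrasomes, at 6.39 and 6.18 with and 5.88 without anti-CD40 (0.41 ± 0.13, adjusted p = 0.234), and Tspan11 at 4.82 and 4.66 against 5.06 (-0.32 ± 0.11, adjusted p = 0.288). Cd63 read 8.39 and 8.94 with and 8.16 without anti-CD40 (0.51 ± 0.30, adjusted p = 0.528).

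Between Rag1-KO and WT arrays after anti-CD40, limma called 0 of 31 members against 0.365% of all genes (0.243% higher and 0.122% lower), and 3 had an unadjusted p under 0.05. Tspan4 read 6.39 and 6.18 in Rag1-KO and 5.84 in WT DCs (0.45 ± 0.13, adjusted p = 0.178). Upk1a, a dim member, read 2.99 and 3.00 against 3.27 (-0.28 ± 0.09, adjusted p = 0.216). Cd63 read 8.64 on the WT array, between both Rag1-KO arrays (0.03 ± 0.30, adjusted p = 0.977). With the variance trend and robust options the count of called members was also 0 in both comparisons. Of the B cell markers 3 of 8 were lower in Rag1-KO DCs, with list means of 4.15 and 4.19 against 4.96, and all 7 neutrophil markers were above 0 (6.97 and 7.23 against 5.37).

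The remaining members were called in no comparison as fitted, though Cd151, Tspan4 and Tspan32 passed under some alternatives. They were Cd37, Cd151, Rom1, Tspan1, Tspan4, Tspan8, Tspan9, Tspan10, Tspan11, Tspan12, Tspan15, Tspan18, Tspan31, Tspan32, Tspan2os, Upk1a and Upk1b. Cd37, a leukocyte tetraspanin that binds dectin-1, lay between 7.45 and 7.99 on the sorted arrays, with changes of -0.17 ± 0.09 in Mst1/2-KO CD8+ (adjusted p = 0.543) and -0.05 ± 0.09 in Mst1/2-KO CD8- DCs (adjusted p = 0.859). Tspan31 lay between 7.29 and 7.69 there, Cd151 between 5.29 and 6.11 and Tspan4 between 5.66 and 6.57. Tspan4 was 0.39 ± 0.13 higher in Mst1/2-KO CD8+ than CD8- DCs without overlap (adjusted p = 0.0535), a difference that passed after quantile normalization (adjusted p = 0.0302).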

How the data were processed

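Expression was measured on 34 microarrays of mouse splenic DCs. The authors deposited log2 values for 41155 probe sets, made with RMA in Partek 6.6 per the submitters' processing notes. The genome build is not given in the sources used here. Of these, 23521 probe sets carried exactly 1 gene symbol in the platform annotation, and the one with the highest mean signal stood for each of 22180 genes. Values have no read depth, and the number of arrays limits the precision.

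Groups came from the sample labels. Within an experiment label, nearly all probe sets shared their digits beyond the fifth decimal, so values carry a constant per probe set and experiment and were compared within a label. The R package limma (version 3.58.1, under R 4.3.3) fitted group means with lmFit and moderated variances with eBayes, with Benjamini-Hochberg adjustment and a threshold of 0.05. The 16 sorted arrays shared 1 fit, total DCs (7 arrays) and experiment 1 (7 arrays) had their own, and experiment 2 took its spread from 11 arrays. The limma script was tested on simulated data. The members and gene lists were chosen with earlier results of these data known. The text names all called members with their values, the 2 smallest p-values where none was called, up to 4 called genes per list and comparison, and the 5 genes most correlated with Cd63.

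Replicate numbers recur across groups. Deviations of same-numbered arrays from their group means correlated at 0.126 to 0.337 between the WT subsets, above 0.1 for every pair. The numbers were taken to pair those arrays. Between the Mst1/2-KO subsets the correlations were 0.0926 to 0.213, and in experiment 1 0.0935 to 0.162. They were not all above 0.1 there, though same-numbered arrays were each other's best match. Between genotypes they were -0.071 to 0.0885 in CD8+, 0.0128 to 0.0863 in CD8- and 0.0465 to 0.13 in total DCs. Same-numbered arrays were not always each other's best match there, so no pairing of WT with Mst1/2-KO arrays was seen. The fits behind the calls left the pairing out, and the replicate block was an alternative. Alternatives were the mean of probe sets, quantile normalization, median centring, genes above the median signal, limma's trend and robust options, 2 groups only, the replicate block, and each array left out in turn.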

Additional observations from a re-analysis of the deposited data

Results flagged for a closer look

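The genotype effect on Cd63 differed between the sorted subsets by a test of the difference itself, -1.71 on the log2 scale. Among the groups of 4 arrays, 84 were examined over 14 genes for 1 array standing apart from the rest, and 7 had one. Chance gives about 1 in 20 such groups. Cd63 was 6.02 on Mst1/2-KO CD8+ replicate 4, against 7.05 to 7.10 on the other arrays of that group. Tspan3 was 8.18 on WT CD8+ replicate 1, against 7.70 to 7.73, and 8.56 on WT total DC replicate 3, against 7.35 to 7.40. Cd82 was 7.48 on WT total DC replicate 1, against 7.90 to 7.94. Cd81 was 10.86 on WT total DC replicate 2, against 10.80 to 10.81. Cd9 was 8.75 on Mst1/2-KO CD8- replicate 2, against 8.90 to 8.92. Tspan6, a dim member, was 2.97 on replicate 2 of the Rag1-KO arrays of experiment 1, where the others all read exactly 3.0366. With such ties any deviation is flagged, so this flag cannot be set against the chance share.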

How the results depend on the processing

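Cd63 kept its call and direction in CD8+ DCs in all 15 alternatives (-2.32 to -1.96), as did Cd82 and Tspan13 in CD8- DCs in 15 each. The called members in Mst1/2-KO CD8+ DCs were 1 with the replicate block, in which Tspan3 lost its call (adjusted p = 0.0556), and 1 to 2 with an array left out. As no pairing was seen between genotypes, the block says little about calls between them. In CD8- DCs they were 2 to 4 with an array left out. For the difference between genotype effects they were 2 after quantile normalization, 2 among genes above the median signal and 2 with trend and robust options, Cd82 being added each time (adjusted p = 0.0364, 0.0344 and 0.0474), and 1 to 2 with an array left out. In total DCs they were 2 with trend and robust options. The replicate block also called Tspan32 in CD8- DCs (adjusted p = 0.0489), where Cd81 and Tspan14 lost their calls, with the same limit. Cd63 between Rag1-KO and WT arrays of experiment 2 turned to -0.0255 after median centring and lay between -0.24 and 0.30 with a Rag1-KO array left out. The cause was not tested. No paired analysis was possible in experiment 2 because the groups compared share 1 replicate number each, so there is no spread between pairs. Precision is limited by 1 to 4 arrays per group.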
